A study of Mus musculus with 7 samples.

Results

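The 8 genes described here encode subunits of AP-1, taken by gene name from a count table of 56691 genes in mouse skin. They are Fos, Fosb, Fosl1 and Fosl2 of the Fos family, Jun, Junb and Jund of the Jun family, and Atf3. All 8 are in the table, 7 had counts, and the same 7 were among the 12888 genes with enough counts to be tested. Skin of healthy appearance came from 3 Tuft1 knockout (KO) mice (mice 2, 3 and 4), and healthy skin from 4 wild-type (WT) mice (mice 5, 6, 7 and 8) stood against it. Each mouse gave 1 library that reads the 3' ends of polyadenylated RNA. The labels give the genotype, while strain, age, sex, body site and the kind of Tuft1 allele are not given in the sources used here, so the knockout is described only as the labels do.

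AP-1 is a dimer of basic leucine zipper proteins. Jun proteins pair with each other or with Fos proteins, whereas Fos proteins need a Jun partner, and Atf3 can pair with Jun proteins or with itself. Fos, Fosb, Junb, Jun and Atf3 are immediate early genes, whose transcripts appear within minutes of growth factors, injury or stress and decay quickly, while Jund and Fosl2 are usually expressed more steadily. In epidermis, AP-1 is known for its part in keratinocyte proliferation, differentiation and the response to wounding.

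In KO skin the mean transcript levels of Fos and Atf3 were 22.9% and 22.1% of those in WT skin, that of Fosb was 28.0%, that of Junb 46.2% and that of Jun 58.5%. Fosl2 stood at 99.1% and Jund at 84.2%, and Fosl1 had no counts. None of the 7 tested genes was called by edgeR's quasi-likelihood test after adjustment over all genes, and for none were the groups separated without overlap. In Fos, Fosb, Jun, Junb and Atf3, WT mouse 8 lay within or below the range of the KO mice, and the other WT mice spread widely above mouse 8.

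The start regions of the 4 genes with an unadjusted p under 0.05 (Fos, Fosb, Junb and Atf3) are shown beside that of Fosl2, whose level was steady. Each window runs from 250 bases before to 50 bases after the start of the gene in RefSeq (GRCm38.p6, written 5' to 3' along the gene's strand, so these coordinates differ from the mm39 ones below). Capitals mark TGACG, the core of the cyclic AMP response element to which CREB and ATF proteins bind, and TATAAA. In Atf3 the match is on the opposite strand, so the capitals there are its reverse complement.
Fos: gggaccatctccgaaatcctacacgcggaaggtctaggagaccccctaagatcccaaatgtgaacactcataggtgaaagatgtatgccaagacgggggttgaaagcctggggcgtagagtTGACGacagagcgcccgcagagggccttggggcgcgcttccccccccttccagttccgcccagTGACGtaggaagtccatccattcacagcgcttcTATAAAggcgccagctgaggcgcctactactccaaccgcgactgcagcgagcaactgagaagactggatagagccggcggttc
Fosb: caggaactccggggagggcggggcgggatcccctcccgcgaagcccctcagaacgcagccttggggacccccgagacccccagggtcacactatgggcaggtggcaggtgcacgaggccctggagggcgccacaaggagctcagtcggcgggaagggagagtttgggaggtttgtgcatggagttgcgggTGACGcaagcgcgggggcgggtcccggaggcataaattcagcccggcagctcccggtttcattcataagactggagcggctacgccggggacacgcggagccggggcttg
Junb: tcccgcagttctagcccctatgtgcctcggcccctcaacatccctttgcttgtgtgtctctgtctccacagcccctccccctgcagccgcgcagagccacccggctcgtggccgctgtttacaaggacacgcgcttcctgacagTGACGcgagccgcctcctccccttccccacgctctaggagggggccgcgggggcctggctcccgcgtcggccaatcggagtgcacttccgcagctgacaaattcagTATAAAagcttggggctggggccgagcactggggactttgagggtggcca
Atf3: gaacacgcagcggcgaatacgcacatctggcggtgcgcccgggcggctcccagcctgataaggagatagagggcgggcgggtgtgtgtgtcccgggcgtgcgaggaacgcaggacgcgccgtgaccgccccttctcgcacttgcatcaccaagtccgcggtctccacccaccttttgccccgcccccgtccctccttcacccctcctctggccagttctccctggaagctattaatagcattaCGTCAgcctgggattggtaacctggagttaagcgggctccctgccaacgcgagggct
Fosl2: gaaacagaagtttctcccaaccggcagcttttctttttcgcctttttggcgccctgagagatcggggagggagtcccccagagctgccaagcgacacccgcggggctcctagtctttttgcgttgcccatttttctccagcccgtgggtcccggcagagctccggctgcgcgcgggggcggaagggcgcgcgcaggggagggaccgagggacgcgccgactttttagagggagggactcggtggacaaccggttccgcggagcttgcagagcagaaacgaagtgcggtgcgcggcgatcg
The windows lie at chr12:85473640-85473939 on the plus strand (Fos), chr7:19309996-19310295 on the minus strand (Fosb), chr8:84978699-84978998 on the minus strand (Junb), chr1:191183284-191183583 on the minus strand (Atf3) and chr5:32136222-32136521 on the plus strand (Fosl2). In the Fos window TGACG begins 129 and 66 bases before the start, and TATAAA begins 33 bases before it. TGACG begins 60 bases before the start in Fosb and 106 bases before it in Junb, and lies on the opposite strand 7 bases before it in Atf3. The core was searched after the windows had been read, and the genes shown were picked by their values in these mice. Its presence in them therefore carries no test, and the RefSeq windows used for comparison were not matched for base content. Of the 7 member windows 4 hold it, those of Fos, Fosb, Junb and Atf3, as do 20.8% of the 32851 RefSeq windows of the same length. The whole element TGACGTCA, which contains TGACG, the AP-1 element TGANTCA and the CArG box, the site of serum response factor, were found in none of the 7 windows, against 1.79%, 7.81% and 1.63% of all windows. The Jun window holds TGACATCA 45 bases before the start, a sequence found in 3.62% of all windows, and TATAAA was found in the Fos and Junb windows and in 13.6% of all. The sequence just after the start was not found in an annotated transcript of the gene for Junb and Jund. It was found for Fos, Fosb, Fosl2, Jun and Atf3. The starts of Junb and Jund are thus uncertain, as are distances measured from them. In Junb TATAAA begins at the start itself. Sites more than 250 bases before a start could not be found. These are letter matches in a short window, not measured binding.

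Libraries held 7009237 to 9086523 counts in KO and 8490972 to 9256459 counts in WT mice. Mitochondrially encoded transcripts took 12.4% to 18.3% of them in KO and 12.3% to 21.6% in WT mice. Levels are CPM, that is counts scaled to a common library size with TMM factors. As the kit tags transcript ends, counts do not grow with transcript length, and levels of different genes were set side by side on the CPM scale. Tuft1 stood at 17.2 to 29.1 CPM in KO and 55.6 to 114 CPM in WT skin. Counts were uneven between libraries: 4036 of the 12226 genes with at least 100 counts in one library were at 0 in another. Markers of basal and suprabasal keratinocytes, fibroblasts and endothelium were all detected, so the material had the markers of skin, and skeletal muscle and fat cell markers were detected as well. In whole skin, fewer cells of a type and less RNA per cell cannot be told apart.

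Among the Fos family, Fos (ENSMUSG00000021250.14, chromosome 12, 85520664 to 85524047, plus strand, mm39) encodes the classical partner of Jun. It stood at 105, 14.2 and 126 CPM in KO mice 2, 3 and 4, and at 565, 288, 459 and 113 CPM in WT mice 5, 6, 7 and 8. KO mice 2 and 3 lay below the lowest WT mouse, mouse 3 far below, and mouse 4 lay just above it. The mean was 81.6 ± 59.3 CPM (SD, n = 3) in KO and 356 ± 198 CPM (SD, n = 4) in WT skin. KO over WT, Fos had a log2 change of -2.13 (SE 0.64), with an unadjusted p = 0.00567 and an adjusted p = 0.793 by edgeR (place 89 among 12888 genes). Permuting the mice over all 35 splits, exact and two-sided, gave p = 0.114. This p doubles the smaller tail, so with 35 splits it cannot fall under 0.05 for any gene.

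Fosb (ENSMUSG00000003545.4, chromosome 7, 19036621 to 19043976, minus strand, mm39) is a paralog of Fos induced with it. Its level was 67.4, 278 and 81.7 CPM in KO mice 2, 3 and 4, and 997, 225, 714 and 96.8 CPM in WT mice 5, 6, 7 and 8. KO mouse 3 lay above WT mice 6 and 8, and the other KO mice lay below all WT mice. KO over WT, Fosb had a log2 change of -1.84 (SE 0.69), with an unadjusted p = 0.0202 and an adjusted p of 0.9997 by edgeR, and the exact two-sided permutation p was 0.286. Without KO mouse 3 the log2 fold change was -2.77, and without WT mouse 5 it was -1.28 (unadjusted p = 0.00340 and 0.0951 by edgeR).

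Fosl2 (ENSMUSG00000029135.11, chromosome 5, 32293145 to 32315186, plus strand, mm39) encodes Fra-2, a Fos protein without the strong activation domain of Fos. It stood at 212, 290.0 and 234 CPM in KO mice and at 268, 228, 289 and 205 CPM in WT mice, in the same order of mice as above. The groups covered nearly the same range. Means were 245 ± 40.1 CPM (SD, n = 3) in KO and 248 ± 37.8 CPM (SD, n = 4) in WT skin, a log2 change of -0.01 (SE 0.22). The edgeR adjusted p was 0.9997 and the exact permutation p 0.914. The change was above 0 in 7 of 14 alternatives (up to 0.08), so it has no settled sign.

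Fosl1 (ENSMUSG00000024912.7, chromosome 19, 5497575 to 5505974, plus strand, mm39) encodes Fra-1, which is known in wounded epidermis. It had 0 counts in all 7 libraries, which allows up to 0.323 to 0.395 CPM by library at 3 counts, for counting error only. The last 500 exon bases of Fosl1, from which 3' end tags come, all lie within exons of Ccdc85b on the other strand, which had 497 counts. No source used here says whether counting used strand, so reads from these genes cannot be told apart and the 0 does not show that Fosl1 is absent.

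**Figure D1:**
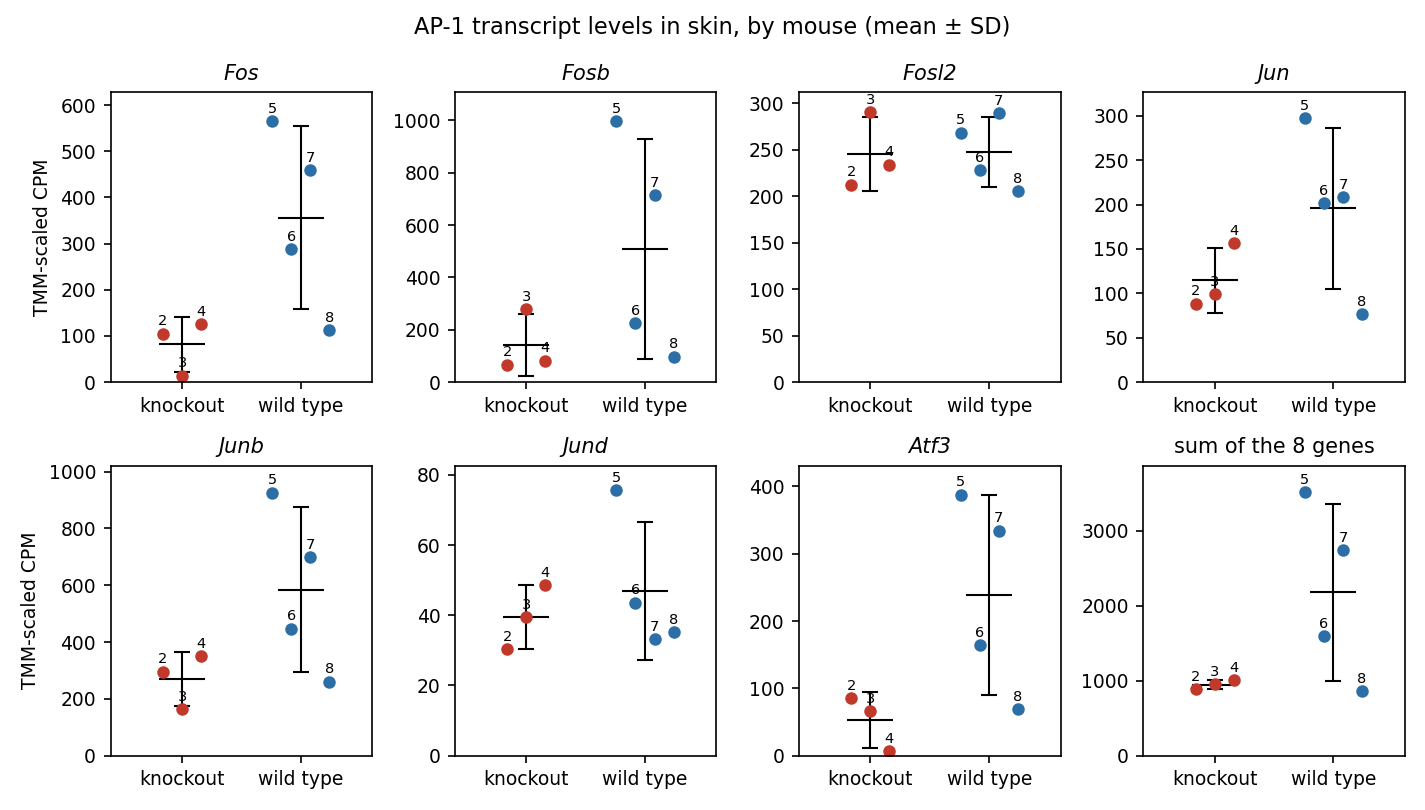
TMM-scaled CPM of the 7 AP-1 genes with counts and of the sum of all 8, on linear axes from 0, with 1 numbered point per mouse (red, KO; blue, WT), the mean as a long bar and the SD as whiskers (n = 3 and 4). In Fos, Fosb, Jun, Junb and Atf3, WT mouse 8 lies within or below the KO range, and WT mice 5 and 7 lie above every KO mouse.

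Of the Jun family, Junb (ENSMUSG00000052837.8, chromosome 8, 85701113 to 85705347, minus strand, mm39) encodes a Jun protein that can restrain the activity of Jun. It was the member with the highest mean in both groups. Its level was 296, 164 and 349 CPM in KO mice 2, 3 and 4, and 926, 448, 699 and 261 CPM in WT mice 5, 6, 7 and 8. WT mouse 8 lay inside the KO range and the other WT mice above it. On the log2 scale the change was -1.11 (SE 0.39), with an unadjusted p = 0.0130 and an adjusted p = 0.973 by edgeR, and the exact two-sided permutation p was 0.171. The last 500 exon bases of Junb share 173 with Prdx2 on the other strand, which had 13198 counts beside 26785 for Junb, so its level is uncertain to that extent.

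Jun (ENSMUSG00000052684.5, chromosome 4, 94937271 to 94940459, minus strand, mm39), which encodes c-Jun, stood at 88.5, 98.8 and 157 CPM in KO mice and at 297, 202, 208 and 76.7 CPM in WT mice. WT mouse 8 was the lowest of all 7 mice, and the other WT mice lay above the KO mice. Its log2 change was -0.77 (SE 0.39, unadjusted p = 0.0673 by edgeR), and the exact two-sided permutation p was 0.229. Junos, on the other strand, shares 232 exon bases with Jun, none of them in its last 500, and had 133 counts beside 9625.

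Jund (ENSMUSG00000071076.9, chromosome 8, 71151599 to 71153265, plus strand, mm39), the Jun protein present in most resting cells, had the lowest level of the members with counts in both group means. It was at 30.4, 39.5 and 48.5 CPM in KO mice and at 75.6, 43.6, 33.1 and 35.3 CPM in WT mice. Only WT mouse 5 stood above the KO range. Its log2 change was -0.25 (SE 0.45), and it was 0.08 without WT mouse 5, so its sign rests on that mouse. The edgeR adjusted p was 0.9997 and the exact permutation p 0.8. Gm11175, on the other strand, shares 877 of the 1667 exon bases of Jund, none of them in its last 500. It had 0 counts beside 2601 for Jund.

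Atf3 (ENSMUSG00000026628.14, chromosome 1, 190902493 to 190950236, minus strand, mm39), a stress-induced factor that can repress as well as activate, stood at 85.7, 66.0 and 6.84 CPM in KO mice 2, 3 and 4. WT mice 5, 6, 7 and 8 had 388, 164, 334 and 68.9 CPM. KO mouse 4, with 52 counts, was far below the rest, and WT mouse 8 lay between KO mice 2 and 3. KO over WT, Atf3 had a log2 change of -2.17 (SE 0.71), with an unadjusted p = 0.00923 and an adjusted p = 0.908 by edgeR, and the exact two-sided permutation p was 0.114. Without KO mouse 4 the log2 fold change was -1.66.

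Of the 7 tested members, 7 had a log2 fold change below 0, against 50.5% of all genes tested. The median was -1.11, beside -0.01 over all genes. Called at an adjusted p under 0.05 were 0 members in edgeR, where 0.00776% of all genes were called lower, 0.0155% higher and 0.0233% in either direction, 0 in the DESeq2 Wald test (0.628% of genes called lower) and 0 in limma-voom (0.116%). Fos, Fosb, Junb and Atf3 had an unadjusted p under 0.05 in edgeR, all lower in KO, 4 of 7 against 2.59% of all genes in that direction, 1.71% higher and 4.31% in either. That count was 2 without WT mouse 5. The count, all lower, was 5 of 7 in DESeq2, where 7.39% of all genes passed in either direction, and 4 of 7 in limma-voom, where 6.56% did. All members were read in the same 7 libraries, so these counts are not independent pieces of evidence. Without a filter on low counts, these 4 members were called lower in edgeR (adjusted p of 1.44e-09 for Fos and 0.00490 for Junb), where 0.220% of 19128 genes were called lower. For Fos the adjusted p over all alternatives ran from 1.44e-09 to 1.00, and for Junb from 0.00490 to 1.00. The groups overlapped in all 7 members, while 3.45% of all genes tested were lower and 3.44% higher without overlap, 6.89% in all. In single-gene tests, 7 exact permutation tests were run, and the smallest p was 0.114.

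**Figure D2:**
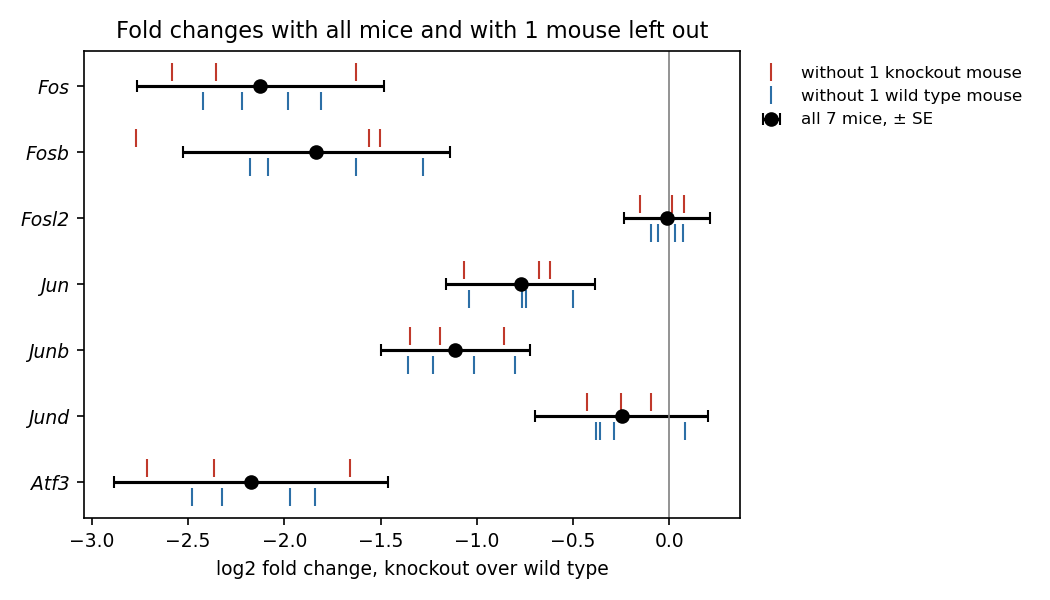
Log2 fold change of each tested AP-1 gene, KO over WT (x axis), with all 7 mice (black, ± SE) and with 1 mouse left out (red ticks, without a KO mouse; blue ticks, without a WT mouse). Fos, Fosb, Jun, Junb and Atf3 stay below 0 in every one of these fits, and Fosl2 and Jund do not.

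The spread inside the WT group was wide. From the highest to the lowest WT mouse, Fosb differed 10.3-fold, Atf3 5.62-fold, Fos 5.01-fold, Jun 3.87-fold, Junb 3.55-fold, Jund 2.28-fold and Fosl2 1.41-fold. The SD of log2 CPM over the 4 WT mice was 1.55 for Fosb, 1.14 for Atf3, 1.03 for Fos, 0.84 for Jun and 0.80 for Junb. Of genes tested, 1694 averaged 100 CPM or more, a level chosen after seeing the data. Among them the median SD was 0.31 and 0 genes had a larger one than Fosb. In the same set 4 genes were wider than Atf3, 8 than Fos, 25 than Jun and 29 than Junb, while Fosl2 was at the 26.3 percentile. Over the 9228 genes averaging 10 CPM or more, where low counts add to the spread, the percentiles were 86.6 for Fosb, 80.0 for Atf3, 76.6 for Fos, 67.6 for Jun, 65.2 for Junb, 44.1 for Jund and 8.83 for Fosl2. Over the KO mice the SD was 1.98 for Atf3, 1.73 for Fos, 1.11 for Fosb, 0.57 for Junb and 0.44 for Jun. Atf3 and Fos thus spread more widely in KO than in WT mice, 12.5-fold and 8.85-fold from highest to lowest KO mouse.

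**Figure D3:**
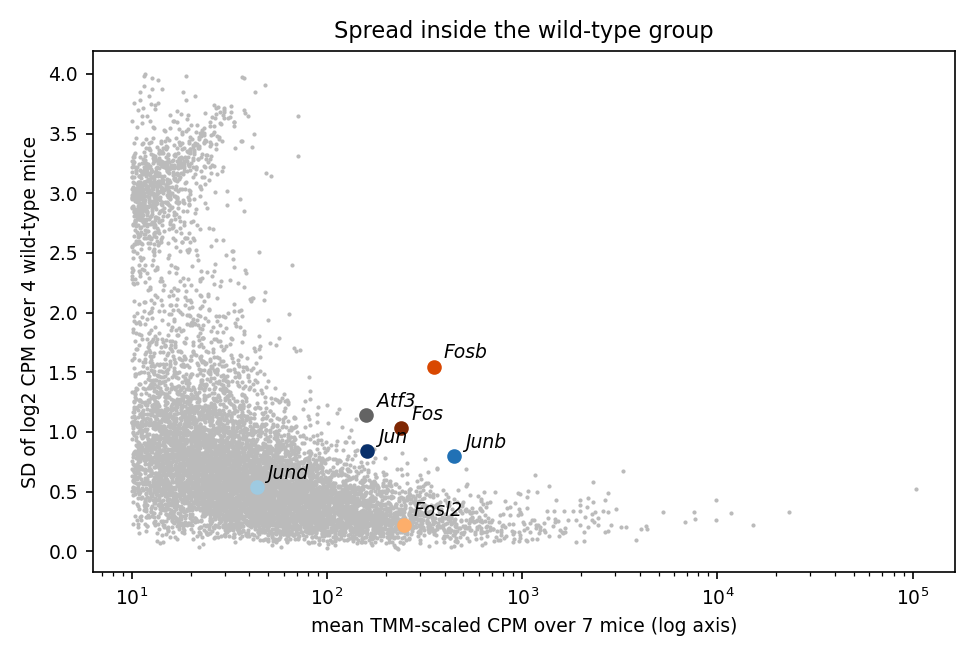
SD of log2 CPM over the 4 WT mice (y axis) against mean TMM-scaled CPM over all 7 mice (x axis, log scale) for the 9228 genes averaging 10 CPM or more (grey) and the 7 AP-1 genes (coloured, named). Fosb, at an SD of 1.55, and Atf3, Fos, Jun and Junb lie at the upper edge of genes of like level, and Fosl2, at 0.22, lies among them.

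The WT mice took the same order, mouse 5 above 7 above 6 above 8, in Fos, Fosb, Jun, Junb and Atf3, 5 of the 7 tested members. That order, chosen after it was seen, was found in 3.97% of all genes tested. Fosl2 and Jund did not follow it. Summed over the 8 genes, the level was 885, 951 and 1003 CPM in KO mice 2, 3 and 4, and 3517, 1597, 2736 and 857 CPM in WT mice 5, 6, 7 and 8. The sums of the KO mice lay within a narrow range, and WT mouse 8 lay just below it. Means were 946 ± 59.2 CPM (SD, n = 3) in KO and 2177 ± 1181 CPM (SD, n = 4) in WT skin.

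The narrow KO sum was made up differently in each mouse. Fos, Fosb, Junb and Atf3 summed to 554, 522 and 564 CPM in KO mice 2, 3 and 4, against 2876, 1124, 2206 and 539 CPM in WT mice 5, 6, 7 and 8. The ratio of Fosb to Fos was 0.643, 19.5 and 0.649 in KO mice 2, 3 and 4, and 1.76, 0.781, 1.56 and 0.858 in WT mice 5, 6, 7 and 8. KO mouse 3 thus stood apart, with 127 counts of Fos and 2482 of Fosb, and its Egr1 level of 307 CPM lay between those of the other KO mice. Atf3 made 0.682% of the sum in KO mouse 4, against 9.68% and 6.94% in KO mice 2 and 3, and between 8.05% and 12.2% in the WT mice.

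Junb took 33.4%, 17.3% and 34.8% of the sum in KO mice 2, 3 and 4, and 26.3%, 28.0%, 25.5% and 30.5% in WT mice 5, 6, 7 and 8. Fosl2, whose level was steady, took 24.0%, 30.5% and 23.3% of the sum in KO mice and 7.63%, 14.3%, 10.6% and 24.0% in WT mice. With a steady level its share is larger by arithmetic where the sum is small, as in KO mice and WT mouse 8. The Fos family as a whole made 49.6 ± 10.1% (SD, n = 3) of the sum in KO and 50.1 ± 3.24% (SD, n = 4) in WT skin, and the Jun family 44.7 ± 11.9% in KO and 39.5 ± 4.63% in WT skin. The difference between groups was smaller than either SD for the Fos family. For the Jun family it was smaller than the KO SD but larger than the WT SD. Atf3 made 5.77 ± 4.61% of the sum in KO and 10.4 ± 1.76% in WT skin, a difference larger than the WT SD and about equal to the KO SD. Without KO mouse 4 the KO mean share of Atf3 was 8.31%.

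**Figure D4:**
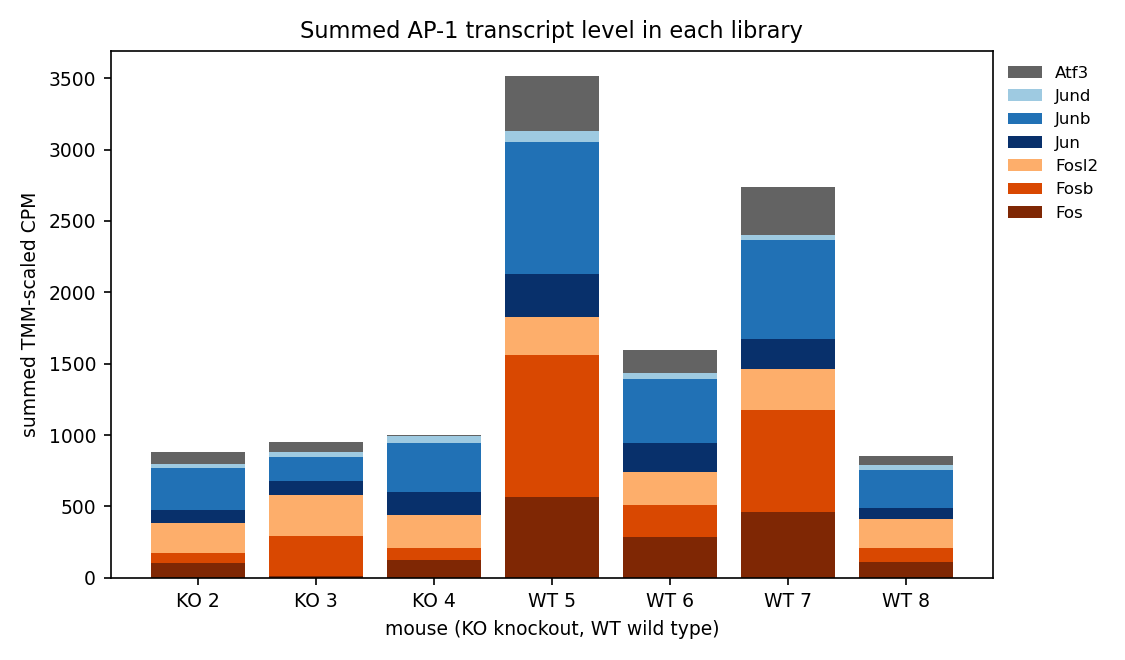
Summed TMM-scaled CPM of the AP-1 genes in each library (y axis, from 0), stacked by gene, with KO mice on the left and WT mice on the right. The totals are 885 to 1003 CPM in the KO mice and 857 to 3517 CPM in the WT mice, and the Fosl2 segment keeps about the same height throughout.

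By mean level the order was Junb, Fosl2, Fosb, Jun, Fos, Atf3 and Jund in KO skin, and Junb, Fosb, Fos, Fosl2, Atf3, Jun and Jund in WT skin. In KO skin Fosl2 was above Fosb in 3 of 3 mice, and the other neighbours down to Jund kept their order in only 1 or 2 of 3. In WT skin Jun was above Jund in 4 of 4 mice and Fos above Fosl2 in 3 of 4, while Junb and Fosb, Fosb and Fos, Fosl2 and Atf3, and Atf3 and Jun kept their order in 2 of 4 mice each. Fosb had the highest level in WT mice 5 and 7, Fosl2 in KO mouse 3, and Junb in the other 4 mice.

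Likeness between genes was measured as the root mean square distance of log2 CPM, each gene centred on its mean over the 7 libraries. Among members, Jun and Junb were closest (0.38), followed by Fosl2 and Jund (0.40), and Jund and Atf3 were farthest apart (1.79). Fos and Fosb were 1.61 apart, and their centred values in KO mouse 3 were -3.36 and 0.35. For Jund and Atf3 the centred values in KO mouse 4 were 0.21 and -3.71. Single mice thus weigh heavily in these distances. Genes that vary little, such as Fosl2, also come out close to each other by this measure. Outside the members, of 9221 genes, the closest to the mean profile of the 7 tested members were Rgs2 at 0.25, Egr1 at 0.27, Dkkl1 at 0.30, and Bicdl1 and Eif2b1 at 0.31 each. Rgs2, a regulator of G protein signalling, stood at 128, 78.4 and 80.1 CPM in KO mice 2, 3 and 4, and at 432, 233, 266 and 141 CPM in WT mice 5, 6, 7 and 8. This order describes 7 libraries and carries no test.

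**Figure D5:**
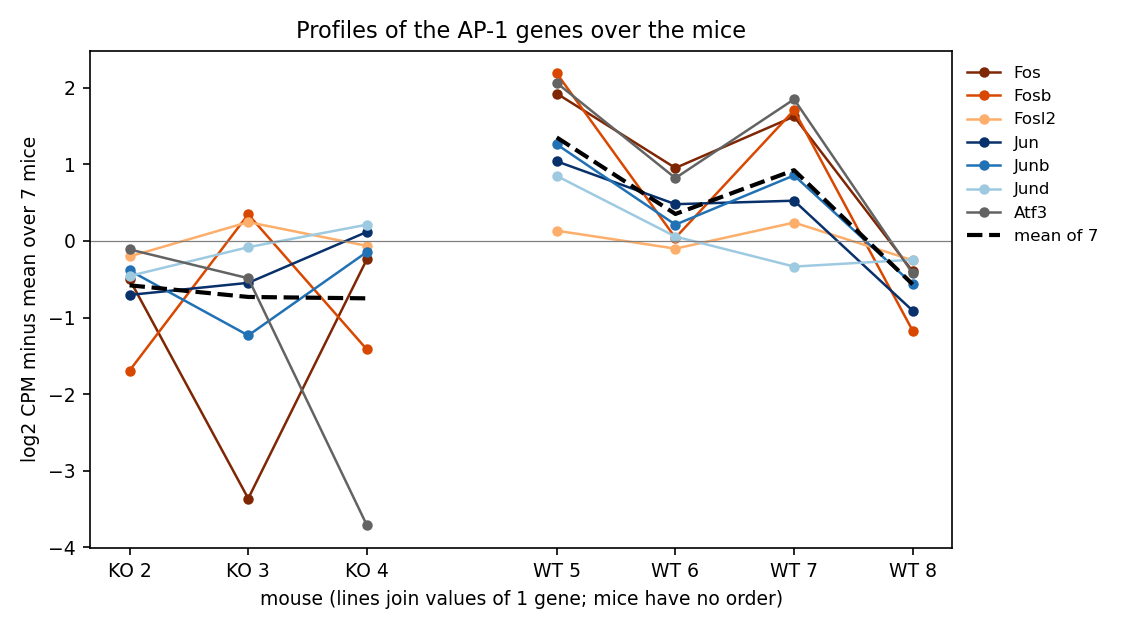
Log2 CPM of each of the 7 AP-1 genes minus its own mean over the 7 mice (y axis), by mouse (x axis: KO left, WT right), with the mean of the 7 genes dashed; lines only join the values of a gene. The mean profile lies at -0.58 to -0.75 in the KO mice, at 0.35 to 1.35 in WT mice 5, 6 and 7, and at -0.57 in WT mouse 8.

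Other immediate early genes, Egr1 and Btg2 among them, had 21 of 24 tested members below 0 and a median log2 fold change of -0.67. By edgeR 0 were called, 5 were lower and 1 higher at an unadjusted p under 0.05, and DESeq2 called 2 lower (Egr1 and Btg2), limma-voom 0. The summed level was 2119 to 2371 CPM in KO and 2154 to 4591 CPM in WT mice, lowest of the WT mice in mouse 8. Egr1, a zinc finger factor induced along with Fos, was at 301, 307 and 316 CPM in KO mice 2, 3 and 4, and at 811, 574, 957 and 400 CPM in WT mice 5, 6, 7 and 8 (-1.15, SE 0.28, on the log2 scale). Its groups did not overlap. Nr4a1, a nuclear receptor induced by the same stimuli, averaged 112 CPM in KO and 411 CPM in WT skin, and its groups overlapped.

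Among genes that feed back on MAP kinases, the pathway that induces Fos, 10 of 11 tested members were below 0 and the median was -0.82. By edgeR 0 were called, 2 were lower at an unadjusted p under 0.05 (Dusp1 and Dusp16) and 0 higher. Dusp1, a phosphatase that switches off p38 and JNK, was at 161, 55.4 and 184 CPM in KO mice 2, 3 and 4, and at 459, 341, 378 and 270 CPM in WT mice 5, 6, 7 and 8. All 3 KO mice lay below all 4 WT mice. Its log2 change was -1.44 (SE 0.36, edgeR adjusted p = 0.519), and DESeq2 and limma-voom called it lower.

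Among other bZIP genes whose proteins can pair with those of AP-1 or its relatives, of 9 tested, 7 were below 0 with a median of -0.13. By edgeR 0 were called, and 1 was higher and 0 lower at an unadjusted p under 0.05. That gene was Maf, which encodes c-Maf, at 430, 449 and 514 CPM in KO mice 2, 3 and 4, and 262, 321, 311 and 367 CPM in WT mice 5, 6, 7 and 8. All KO mice lay above all WT mice (log2 fold change 0.56, SE 0.20). Mafg, a small Maf protein, averaged 56.8 CPM in KO and 29.8 CPM in WT skin, with overlap (log2 fold change 0.93, SE 0.48). Mafk, another small Maf protein, averaged 20.5 CPM in KO and 38.1 CPM in WT skin, without overlap (log2 fold change -0.89, SE 0.54).

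Genes described as AP-1 targets in some cell type had 11 of 21 tested members below 0 and a median of -0.16. By edgeR 0 were called, 2 were lower and 2 higher at an unadjusted p under 0.05, and DESeq2 called Areg lower and Mmp14 higher. Areg, an EGF receptor ligand, had 0 counts in the 3 KO mice, and stood at 32.1, 7.77 and 39.3 CPM in WT mice 5, 6 and 7 and at 0 counts in mouse 8. Lor, which encodes loricrin of the cornified envelope, was at 3882, 4505 and 3807 CPM in KO mice 2, 3 and 4, and at 6415, 4580, 7906 and 5779 CPM in WT mice 5, 6, 7 and 8. Mmp14, a membrane-bound matrix metalloproteinase, was higher in the mean, at 719 CPM in KO and 467 CPM in WT skin, without overlap. Ivl, which encodes involucrin, averaged 126 CPM in both groups. The matrix metalloproteinases Mmp10 and Mmp13 had 0 counts in all libraries.

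Marker levels of other cell types were set beside the AP-1 values. Fat cell markers summed to 2832 to 5110 CPM in KO and 7632 to 13046 CPM in WT mice, with 7 of 7 tested markers lower at an unadjusted p under 0.05 in edgeR and none at 0 in all libraries. Of the 7, edgeR called 0 after adjustment, DESeq2 called 7 lower and limma-voom called 6 lower. WT mouse 8, whose AP-1 sum was the lowest, had 12353 CPM of them, within the range of the other WT mice. Endothelial markers summed to 134 to 162 CPM in KO and 135 to 241 CPM in WT mice, with 5 of 7 below 0, and Tek and Cldn5 at 0 counts in KO mice (Tek called lower by DESeq2). Suprabasal keratinocyte markers summed to 6496 to 11131 CPM in KO and 10649 to 12894 CPM in WT mice, with 6 of 7 below 0. Globin genes, a sign of blood, summed to 250.1 to 758 CPM in KO and 456 to 1451 CPM in WT mice, with 4 of 4 tested below 0 and Alas2 at 0. Smooth muscle and pericyte markers summed to 189 to 486 CPM in KO and 317 to 568 CPM in WT mice, with 5 of 7 below 0. T cell markers had 3 of 6 below 0, and basal keratinocyte markers 3 of 7. Mast cell, skeletal muscle, macrophage and fibroblast markers lay mostly above 0. Mast cell markers summed to 484 to 624 CPM in KO and 312 to 384 CPM in WT mice, with 5 of 6 above 0, a median log2 fold change of 0.75 and Tpsb2 called higher by DESeq2. Skeletal muscle markers summed to 19415 to 28806 CPM in KO and 17670 to 24788 CPM in WT mice, with 7 of 7 above 0 and a median of 0.36. Macrophage markers had 7 of 7 above 0 (441 to 1119 CPM in KO and 403 to 698 CPM in WT mice), and fibroblast markers 6 of 7 (11307 to 30223 CPM in KO and 10970 to 18759 CPM in WT mice). The median log2 fold change was -1.47 for fat cell, -0.95 for globin, -0.92 for endothelial, -0.49 for suprabasal and -0.35 for smooth muscle and pericyte markers. It was -0.17 for T cell, 0.12 for basal keratinocyte, 0.26 for macrophage and 0.44 for fibroblast markers, beside -1.11 for the AP-1 members. The part of all these markers in the AP-1 values was not tested. Neutrophil markers were near 0, with Ly6g, Cxcr2, Csf3r and Retnlg at 0 counts in all libraries and a sum of 21.7 to 50.5 CPM in KO and 5.57 to 43.3 CPM in WT mice.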

How the data were processed

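Skin RNA of 3 KO and 4 WT mice was isolated in TRIzol after the frozen tissue had been ground, and QuantSeq 3' end libraries were prepared, per the labels' protocols. The authors deposited whole-number counts per gene, and a second table of log2 values. Named without order are edgeR 3.36.0, Subread 2.0.3, featureCounts, GATK 4.2.4.0, STAR and the mm39 build, per the submitters' processing notes; strand use and duplicate removal are not given in the sources used here. All 90678 deposited log2 values were recovered from the counts as edgeR log2 CPM with a prior count of 2, within 1e-09, and that table otherwise only defined an alternative gene set.

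The members, lists and tests were chosen with earlier results of these data known. Counts were fitted in edgeR 4.0.16 (R 4.3.3): expression filter with a minimum of 10 counts, TMM factors, quasi-likelihood F test, Benjamini-Hochberg adjustment over 12888 genes, called under 0.05. Standard errors were derived from the F statistic. Log2 values are edgeR log2 CPM with a prior count of 2. Exact permutation tests used scipy 1.17.1. Alternatives were RLE factors, TMM factors without muscle, fat, blood, hair and mitochondrial genes, DESeq2 1.42.0, limma-voom 3.58.1, no filter, a mean of at least 50 CPM, the authors' gene set, and each mouse left out. Only the 8 members, Tuft1, called genes or the 3 with the smallest p per list, and the 5 nearest profiles were to be named; not all of these are printed, and Ivl, Mmp10 and Mmp13 were named after their values were seen. Where nothing says that the mice were separate in litter or handling, p-values measure the spread between these samples. The procedure was tested on simulated data. Sequences are RefSeq start regions, matched by symbol for 7 of the 8 members (Fosl1 had no entry).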

Additional observations from a re-analysis of the deposited data

Results flagged for a closer look

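For each gene, the gap between the farthest WT mouse and its nearest neighbour was divided by the range of the 4 WT log2 CPM values. By this measure none of the 7 tested AP-1 genes had a WT mouse that stood far from the other 3. Of 61 groups of 4 WT values checked, those of 3 other named genes had such a mouse, where chance gives about 1 in 20 (3.05). The log2 CPM of Tek in WT mouse 8 was 1.30, where the other WT mice had 2.96 to 3.20. For Tpsb2, WT mouse 5 had 7.08 and the others 7.46 to 7.52. For Tuft1, WT mouse 7 had 5.80 and the others 6.70 to 6.84. KO values were not checked in this way, so Fos in KO mouse 3 (14.2 CPM) and Atf3 in KO mouse 4 (6.84 CPM) could not be flagged.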

How the results depend on the processing

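Fos, Fosb, Jun, Junb and Atf3 had a log2 fold change below 0 under all 14 alternatives, from -2.59 to -1.63 for Fos, -2.77 to -1.28 for Fosb, -1.07 to -0.50 for Jun, -1.36 to -0.80 for Junb and -2.71 to -1.66 for Atf3. The members' median ran from -1.44 to -0.80. The number of members called was 4 without a filter on low counts and 0 under the other 13 alternatives; the cause was not tested. Fosl2 turned above 0 in 7 alternatives, at 0.0030 with RLE factors, 0.0031 with DESeq2, 0.022 at a mean of at least 50 CPM, 0.077 without KO mouse 2, 0.015 without KO mouse 4, 0.028 without WT mouse 5 and 0.069 without WT mouse 7 (-0.15 to 0.077 with 1 mouse left out). Jund was at 0.082 without WT mouse 5 (-0.43 to 0.082). Jund was below the mean of 50 CPM and has no value there. Over all genes, 2 were called higher and 1 lower, against 44 and 81 with DESeq2, 7 and 15 with limma-voom, 34 and 42 without a filter, 9 and 14 at a mean of at least 50 CPM, and 0 to 1 and 0 to 0 with 1 mouse left out. Shares in the summed level do not change with scaling by construction. With 1 mouse left out, the mean share of Fosb ran from 7.88% to 18.7% in KO and from 17.2% to 22.8% in WT mice. In groups of this size a mean cannot move by 1 SD when 1 mouse is left out, so the SD is no yardstick for these shifts. No paired analysis was possible because no mouse number occurs in both groups. Variation between libraries beyond counting error, as edgeR estimated it over all genes, came to 108% of the level. It takes in technical unevenness between libraries as well as differences between mice.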

Other observations

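Kinases upstream of AP-1 and factors that bind immediate early promoters are described by their transcripts. Of 21 tested kinases, 14 had a log2 fold change above 0, with a median of 0.26, and by edgeR 0 were called and 0 had an unadjusted p under 0.05 (1 higher in DESeq2 and in limma-voom). Mapk8, which encodes JNK1, averaged 31.5 CPM in KO and 5.87 CPM in WT skin, without overlap. Rps6ka3 averaged 51.3 CPM in KO and 83.0 CPM in WT skin, and Map2k4 95.8 CPM in KO and 126 CPM in WT skin, both with overlap. The summed level of the kinases was 1111 to 1336 CPM in KO and 1002 to 1174 CPM in WT mice. Of 11 factors, 8 were below 0 with a median of -0.09, 0 were called and 0 had an unadjusted p under 0.05 in edgeR (1 lower in limma-voom). Elk4, a partner of serum response factor, averaged 156 CPM in KO and 209 CPM in WT skin (log2 fold change -0.42, SE 0.23). Creb1, which binds the cyclic AMP response element, averaged 40.1 CPM in KO and 67.0 CPM in WT skin, with overlap. Atf1, which binds the same element, averaged 45.5 CPM in KO and 25.5 CPM in WT skin, without overlap (log2 fold change 0.84, SE 0.56).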
